A study of Canis lupus familiaris with 7 samples.

Results

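The lysozymes and macrophage markers described here are 10 genes, LYZF2, LYZ, MARCO, MSR1, MRC1, CD163, CD14, CSF1R, CD68 and F13A1, out of 15115 genes that carry 1 symbol on a canine expression array. Every probe set, a short group of probes aimed at 1 transcript, whose single gene symbol was one of these 10 was taken, which gave 20 probe sets. Probe sets of 1 gene are numbered by their mean intensity, as names only. The genes were chosen by their measured differences between low salt and control on these arrays, LYZF2 for standing higher in low salt. The differences between the groups are therefore descriptions, given with their errors and without a test.

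The arrays hold RNA of the left ventricle of male mongrel dogs. The low-salt group has 4 arrays, numbered 1 to 4, from dogs fed a diet with 0.5% sodium chloride for 2 weeks, and the control group has 3 arrays, numbered 1, 3 and 4, for which the labels give no salt content or feeding time. The study text counts 10 dogs fed this diet, and nothing read here ties them to the 4 arrays. The labels do not say that each sample is a separate animal or culture, so errors measure the spread between these samples.

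Lysozyme is an enzyme that cuts the sugar backbone of bacterial cell walls, and it is made in quantity by macrophages, neutrophils and many glands. Tissue macrophages of the heart clear dying cells and debris with scavenger receptors, sense bacterial products through CD14, and depend on the growth factor receptor CSF1R. MRC1, CD163 and F13A1 are commonly used to mark tissue-resident or alternatively activated macrophages, and MARCO is induced on macrophages by bacterial products.

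Intensities are the deposited linear values, which the authors' software had scaled to a common trimmed mean of about 150 on each array. Differences are low salt minus control in log2(intensity + 16), after the 7 arrays were given 1 common distribution (quantile normalization). They come with the standard error (SE) or 95% interval of a limma fit over 28616 probe sets. The offset of 16 makes changes of dim probe sets look smaller. With quantile normalization the median difference of all 42924 probe sets was 0.02, with the values as deposited it was -0.17, and with array medians set equal it was 0.26. Heart muscle markers were abundant: the β-myosin gene MYH7 read 7944 to 10745 in low salt and 8102 to 12526 in controls. The 3' to 5' signal ratio of GAPDH, a measure of RNA integrity, was taken from both GAPDH probe set pairs. On pair 1 it was 2.27 ± 0.17 (SD, n = 4) in low salt and 2.58 ± 0.18 (SD, n = 3) in controls, and the groups did not overlap (p = 0.0571 in a two-sided exact permutation test, the lowest value 35 splits can give). On pair 2 it was 17.7 ± 3.46 in low salt and 29.3 ± 10.0 in controls, again without overlap and with the same p, whereas the actin ratio overlapped, at 0.763 ± 0.374 in low salt and 0.957 ± 0.241 in controls (exact permutation p = 0.400). The part of these ratios in the results below was not tested.

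LYZF2 stood far above control in every low-salt ventricle. Its only probe set read 1136, 313, 698 and 340 intensity units in low-salt samples 1 to 4, against 87.3, 90.5 and 90.7 in control samples 1, 3 and 4. The groups did not overlap, and the low-salt samples themselves spread over a wide range, with samples 1 and 3 high and samples 2 and 4 lower. The 3 control samples were almost equal on the deposited scale. The group means were 622 ± 385 (SD, n = 4) in low salt and 89.5 ± 1.93 (SD, n = 3) in controls, a ratio of 6.95. On the normalized log2 scale the low-salt mean was 9.11 ± 0.84 (SD, n = 4) and the control mean 6.51 ± 0.23 (SD, n = 3), so the log2 difference had a 95% interval from 1.80 to 3.41. Among all 42924 probe sets this was the highest positive difference with this processing. In bulk tissue, more cells of a type and more RNA per cell cannot be told apart.

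LYZ, the other lysozyme gene among the 10, overlapped between the groups on both of its probe sets. Its probe set 1 read 2335, 2881, 2747 and 1984 in low-salt samples 1 to 4, against 1557, 2942 and 1588 in control samples 1, 3 and 4. The groups overlapped, and control sample 3 had the highest intensity of all 7. The log2 difference was 0.20 ± 0.21 (SE), with a 95% interval from -0.26 to 0.65. LYZ probe set 2 read 169, 235, 239 and 230 in low salt, against 240, 269 and 178 in controls. Here too the groups overlapped, with a log2 difference of 0.02 ± 0.25 (SE). How far lysozyme transcripts cross-hybridize on this array was not tested, since no probe sequences were used here.

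**Figure D1:**
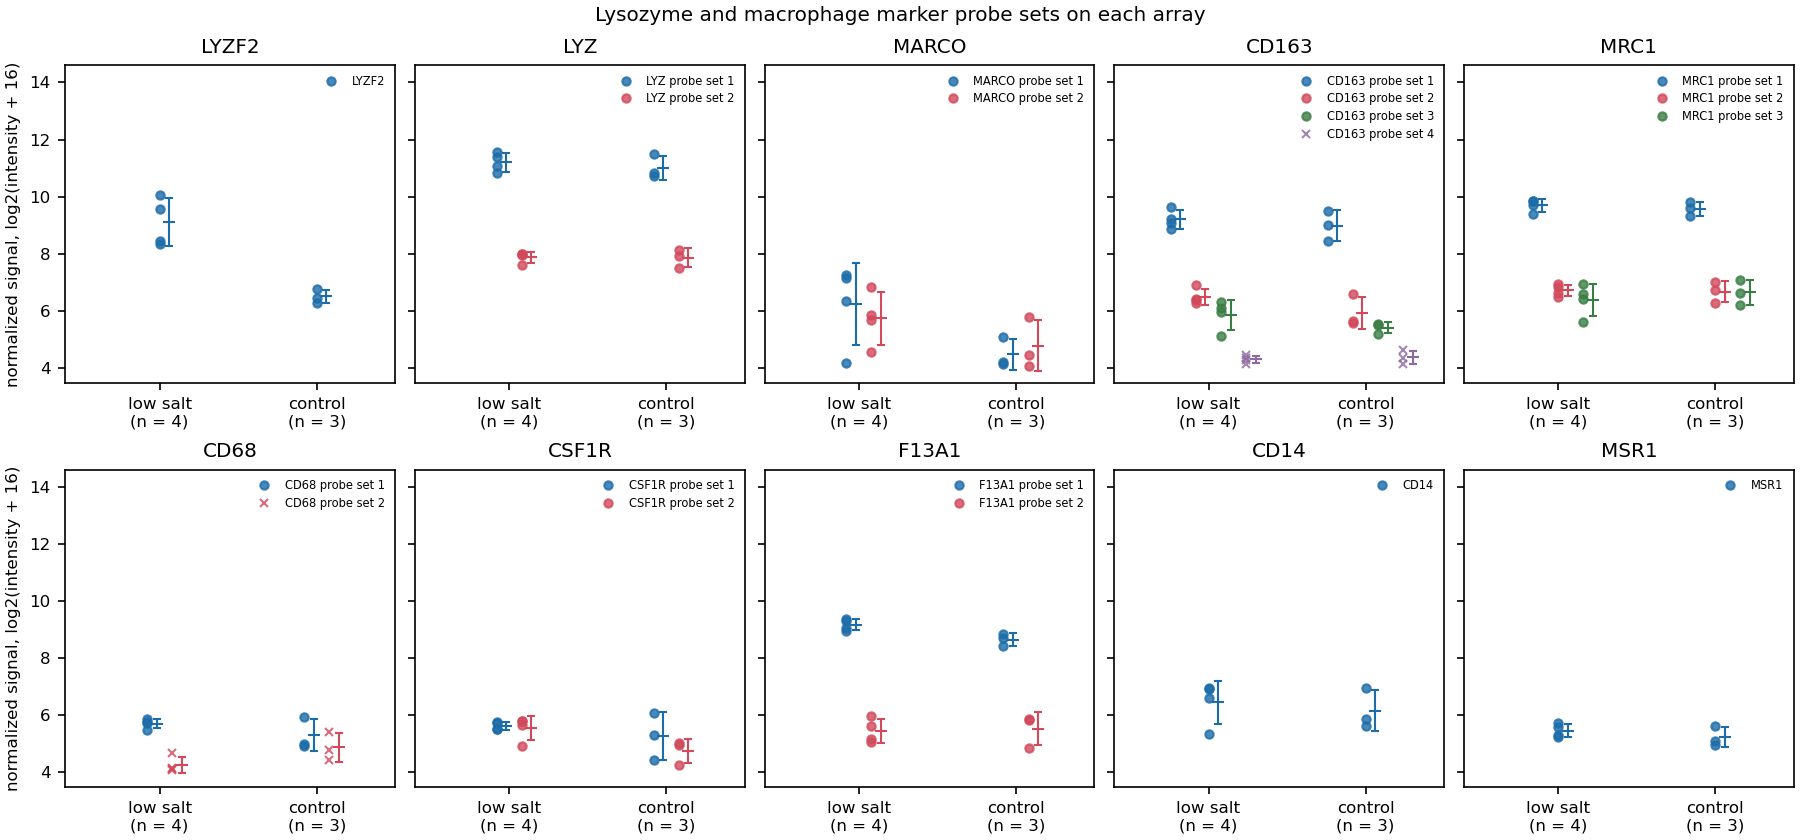
Normalized signal, log2(intensity + 16), of all 20 probe sets of the 10 genes, 1 panel per gene, with low salt (4 arrays) left of control (3 arrays). Each point is 1 array, crosses mark the 2 probe sets below the signal filter, colours mark probe sets, and bars give mean ± SD. In the LYZF2 panel the low-salt points lie between 8.35 and 10.07 and the control points between 6.30 and 6.76, while the LYZ points of both groups share a range.

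Among the scavenger receptors MARCO gave the widest spread. MARCO, a collagen-like receptor for bacteria and particles, read 113, 125, 84.9 and 0.93 in low-salt samples 1 to 4 with probe set 1, against 22.4, 1.45 and 4.69 in control samples 1, 3 and 4. Low-salt samples 1, 2 and 3 were above every control, while low-salt sample 4 was below them all on the deposited scale. The log2 difference was 1.75 ± 0.62 (SE), and it was 2.45 without low-salt sample 4. Probe set 2 read 30.2, 85.8, 50.4 and 4.16 in low salt, against 1.27, 5.74 and 62.7 in controls. Control sample 4 was high there, so the groups overlapped and the difference was 0.96 ± 0.53 (SE). Low-salt sample 4 was the lowest of its group in both.

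MSR1, the class A scavenger receptor that takes up modified lipoproteins, was dim in both groups. Its probe set read 16.1, 25.9, 30.6 and 20.1 in low salt, against 42.1, 18.6 and 24.9 in controls. The groups overlapped, and the direction depended on the scaling: the log2 difference was 0.24 ± 0.35 (SE) after quantile normalization and -0.16 with the values as deposited.

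MRC1, the mannose receptor of resident macrophages, overlapped between the groups on each of its 3 probe sets. With probe set 1 it read 963, 695, 849 and 886 in low salt, against 837, 775 and 565 in controls. The groups overlapped, the difference was 0.12 ± 0.19 (SE) and its 95% interval ran from -0.30 to 0.54. Probe sets 2 and 3 differed by 0.06 ± 0.29 and -0.26 ± 0.35 (SE). Without control sample 4 the difference of probe set 1 was -0.01. With the values as deposited the difference of probe set 2 was -0.23 and that of probe set 3 was -0.55.

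CD163, the receptor that clears haemoglobin bound to haptoglobin, has 4 probe sets, of which 3 entered the fit. Probe set 1 read 833, 610, 434 and 564 in low salt, against 496, 721 and 317 in controls. The groups overlapped, with control sample 3 above 3 of the 4 low-salt samples, and the difference was 0.22 ± 0.26 (SE). It turned to -0.06 without control sample 4. Probe sets 2 and 3 differed by 0.56 ± 0.33 and 0.45 ± 0.36 (SE), again with overlap. Probe set 4 lay below the signal filter, at 0.82 to 9.01 intensity units in low salt and 1.60 to 10.0 in controls, and differed by -0.07.

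CD14, the surface protein that hands bacterial lipopolysaccharide to its receptor complex, read 67.7, 96.0, 35.5 and 85.5 in low salt, against 42.4, 108 and 67.2 in controls. Low-salt sample 3 was the lowest of all 7 and control sample 3 the highest. The difference was 0.30 ± 0.43 (SE) after quantile normalization and -0.01 with the values as deposited.

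CSF1R, the receptor on which macrophages depend for survival, was read by dim probe sets only. Probe set 2 read 24.4, 9.80, 55.4 and 25.0 in low salt, against 3.88, 17.1 and 24.8 in controls, and differed by 0.80 ± 0.38 (SE). On the normalized scale 3 of the 4 low-salt samples were above every control, and low-salt sample 2 lay among the controls. Probe set 1 read 26.0, 20.2, 41.9 and 23.9 in low salt, against 6.43, 24.1 and 78.6 in controls. The controls enclosed the low-salt values there, with a difference of 0.35 ± 0.40 (SE) that became -0.02 with the values as deposited and -0.08 without control sample 1.

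CD68, a glycoprotein of macrophage lysosomes, gave opposite signs on its probe sets. Probe set 1 read 30.6, 19.5, 51.5 and 24.1 in low salt, against 57.1, 16.4 and 24.6 in controls. The deposited means were nearly equal, at 31.4 ± 14.1 (SD, n = 4) in low salt and 32.7 ± 21.6 (SD, n = 3) in controls, whereas the normalized log2 difference was 0.42 ± 0.35 (SE). Probe set 2, below the signal filter, read 0.87, 0.54, 3.11 and 5.45 in low salt, against 34.0, 5.04 and 18.9 in controls, and differed by -0.61.

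F13A1, the catalytic subunit of coagulation factor XIII that crosslinks fibrin and is stored by macrophages and platelets, was the other gene whose groups did not overlap on a probe set. Probe set 1 read 504, 676, 494 and 661 in low-salt samples 1 to 4, against 394, 445 and 314 in control samples 1, 3 and 4. Every low-salt value was above every control value, and low-salt samples 2 and 4, which had the lowest LYZF2 values of their group, had the highest F13A1 values. The group means were 583 ± 98.0 (SD, n = 4) in low salt and 384 ± 66.3 (SD, n = 3) in controls, a ratio of 1.52. The log2 difference was 0.52 ± 0.20 (SE), with a 95% interval from 0.08 to 0.95. Probe set 2 read 23.6, 11.9, 63.5 and 11.7 in low salt, against 15.4, 41.2 and 67.2 in controls, and did not follow, with overlap and a difference of -0.06 ± 0.38 (SE).

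**Figure D2:**
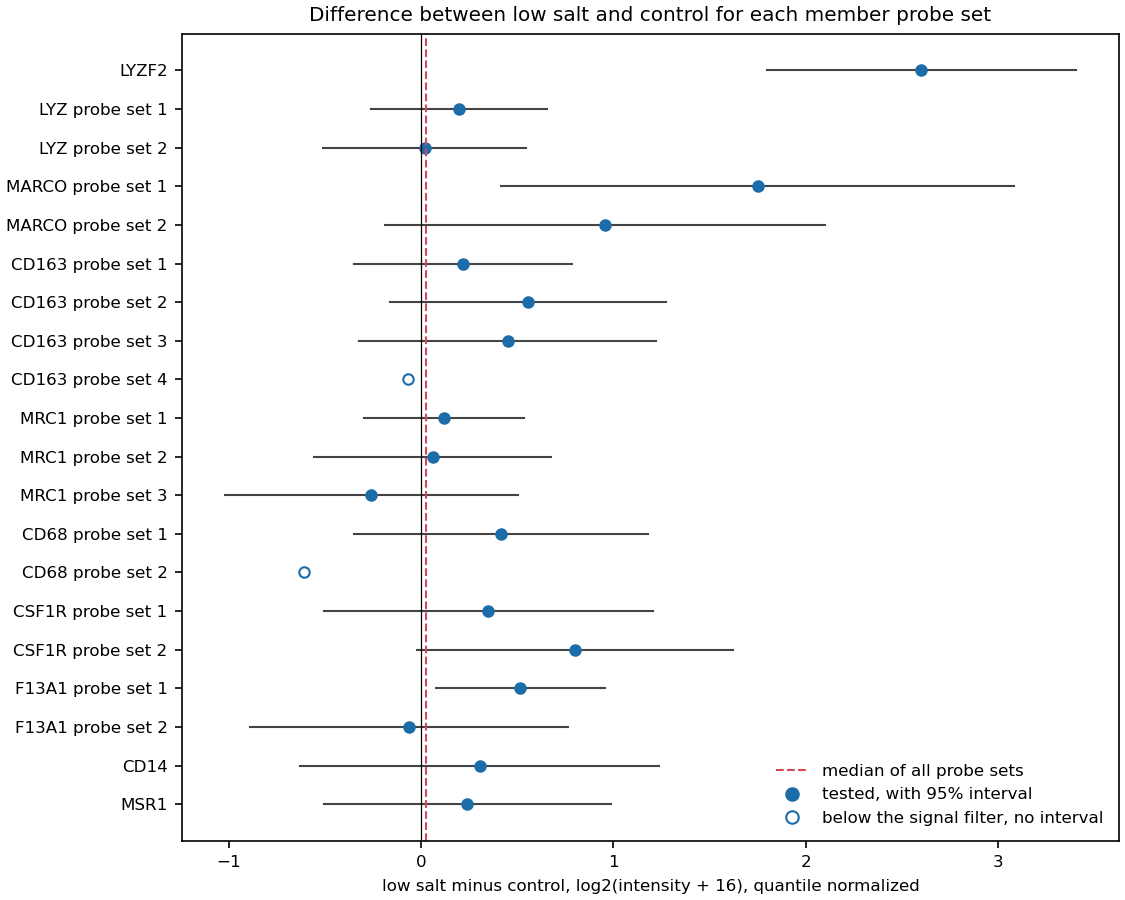
Low salt minus control for each of the 20 probe sets on the log2(intensity + 16) scale after quantile normalization. Filled points carry their 95% interval, open points are the 2 probe sets below the signal filter, and the dashed line is the median of all probe sets (0.02). The lower ends of the LYZF2, MARCO (probe set 1) and F13A1 (probe set 1) intervals are 1.80, 0.42 and 0.08, and the other 15 intervals include 0.

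Taken as a group, 16 of the 20 probe sets had a difference above 0, where 52.8% of all 42924 probe sets did. Their median difference was 0.27, from -0.61 to 2.60, beside a median of 0.02 over all probe sets, and without LYZF2 it was 0.24. The distance between the medians was 0.25 with quantile normalization and 0.20 under either of the other scalings. With 1 array left out this distance ran from 0.11 (without control 4) to 0.38 (without control 3). The count above 0 among the 20 also moved, to 11 on the deposited scale and 18 with equal medians. Leaving out 1 array gave counts from 13 (without control 4) to 17 (without control 3). Of the 20 probe sets 18 passed the signal filter, and 1 of them, LYZF2, passed an adjusted p of 0.05 in limma (Benjamini-Hochberg over all tested probe sets), where 0.346% of all tested probe sets passed and 0.0384% passed as higher. That call was absent in the methods' t-test and without control sample 1. At an unadjusted p of 0.05 stood 3 higher and 0 lower ones (LYZF2, MARCO and F13A1), where 5.27% of all tested probe sets were higher and 5.78% lower. The groups did not overlap in 2, both higher, where 5.13% of tested probe sets were higher and 5.68% lower without overlap. Since this comparison served to choose the genes, nothing is read from these counts. Of the 7 genes with several probe sets, 3 (LYZ, MARCO and CSF1R) had all of them on 1 side of 0, and 4 (CD163, MRC1, CD68 and F13A1) had them on both sides.

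**Figure D3:**
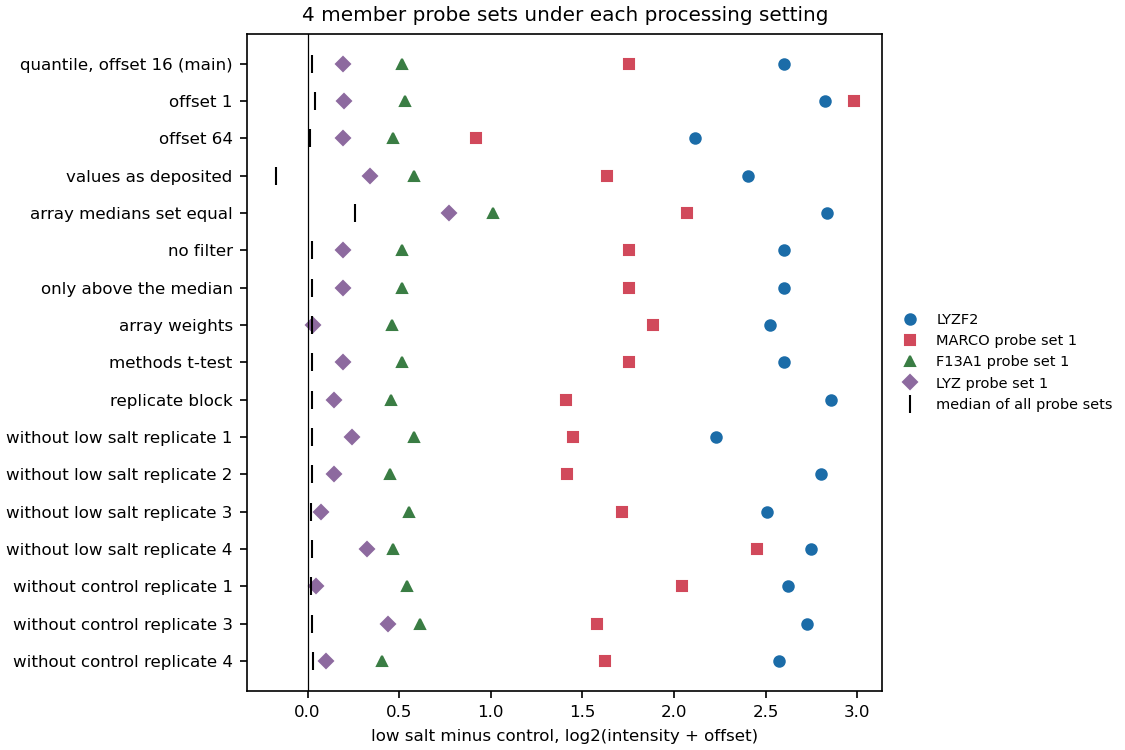
Low salt minus control of LYZF2 and of 1 probe set each of MARCO, F13A1 and LYZ, on the log2 scale, under the main processing and each of 16 alternatives, with the median of all probe sets as a black bar. LYZF2 runs from 2.12 to 2.86, MARCO from 0.92 to 2.98, F13A1 from 0.40 to 1.01 and LYZ from 0.03 to 0.77.

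The 5 genes whose level followed LYZF2 most closely over the 7 arrays are on none of the marker lists described below. Those lists hold only 115 of the 11381 genes tested with 1 probe set each, so nothing is read from this. By Pearson correlation of the normalized log2 signal the 5 genes were TMEM170A (r = 0.993), SCAND1 (0.978), LOC610887 (0.976), LOC482977 (0.966) and EMILIN1 (0.966), the last a glycoprotein of elastic fibres. Both groups enter these values, so part of each r is the difference between the groups. With the group means removed they were 0.955, 0.869, 0.837, 0.770 and 0.810. Without the samples farthest from the LYZF2 median, controls 1 and 4, they ran from 0.933 to 0.995. Control 3 is then the only control left, so these values still hold the difference between the groups and add no support. TMEM170A read 33.9, 17.8, 53.2 and 17.2 in low salt, against 15.0, 11.0 and 19.1 in controls, so it is dim and overlaps on the deposited scale. SCAND1 read 112, 62.5, 117 and 58.9 in low salt, against 26.3, 27.9 and 49.0 in controls, high in low-salt samples 1 and 3 as LYZF2 was. Of the 28616 tested probe sets 14 others reached an r of 0.95 with LYZF2. The 5 genes were picked as the highest of many such values over only 7 arrays. How many probe sets would reach such an r by chance was not tested. Among the other member probe sets the highest r were 0.796 for CSF1R (probe set 2), 0.720 for MARCO (probe set 1) and 0.640 for F13A1 (probe set 1), and LYZ had 0.370 and -0.063. These values also hold the difference between the groups for which the genes were chosen. With the group means removed they were 0.421 for CSF1R, 0.377 for MARCO and -0.566 for F13A1, so the sign turned for F13A1. The highest of the member values was then 0.665, for MRC1 (probe set 1).

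Other macrophage genes were examined through lists, with 1 probe set per gene. The lists did not serve to choose the members, but they too were chosen with earlier results of these data known. Of 17 lists with 115 different genes tested, 0 genes passed an adjusted p of 0.05 in limma, where 0.281% of the 11381 genes tested 1 probe set each did. The methods' t-test also gave 0, with 4 calls among all 28616 probe sets. At an unadjusted p of 0.05 stood 7 higher and 6 lower ones, where 5.57% and 4.89% of all genes did.

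The list of general macrophage and phagocyte genes, 19 tested of 23, had a median difference of 0.10, with 4 genes higher and 1 lower at an unadjusted p of 0.05. Cathepsin S (CTSS), a protease that prepares antigens in phagocytes, read 1338, 1372, 1248 and 1186 in low salt, against 628, 871 and 600 in controls. All low-salt values were above the controls, with a difference of 0.75 ± 0.18 (SE, limma adjusted p = 0.113), and its other probe set differed by 0.58. C1QB, a chain of the complement component that tags debris and is made largely by macrophages, read 148, 133, 158 and 123 in low salt, against 64.7, 82.8 and 88.4 in controls, and differed by 1.01 ± 0.26 (SE, limma adjusted p = 0.165). C1QC differed by 0.88 ± 0.36 and, on its other probe set, by 0.85, and the high-affinity antibody receptor FCGR1A by 1.17 ± 0.39 (SE). The remaining C1q chain, C1QA, overlapped between the groups and differed by 0.27 ± 0.24 (SE). The adaptor FCER1G differed by -1.01 ± 0.44 (SE), with 4.23, 4.17, 69.6 and 6.04 in low salt, against 84.1, 33.4 and 64.9 in controls. The other 14 genes had an unadjusted p above 0.05 and differed by -0.33 (CD53) to 0.63 (MS4A7). The summed intensity of the 19 genes ran from 5210 to 6226 in low salt and from 3514 to 5351 in controls. Bright genes weigh most in this sum, and of the 19 genes 12 differed above 0 and 7 below. Their mean normalized log2 signal ran from 6.98 to 7.16 in low salt and from 6.58 to 7.09 in controls.

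Other genes of resident macrophages, 9 tested of 12, had a median of -0.03, and 0 stood at an unadjusted p of 0.05. LYVE1 differed by -0.02, TIMD4 by 0.02, VSIG4 by 0.24 (-0.15 with the values as deposited) and STAB1 by -0.18. The sialic acid receptor SIGLEC1 differed by -0.96 ± 0.45 (SE), and the lectin CD209 by -0.45, with 115, 108, 103 and 77.5 in low salt, against 167, 175 and 149 in controls. CD209 was thus lower in every low-salt sample, with a limma adjusted p of 0.562, and its other probe set differed by 0.15. Among further scavenger receptors (8 tested, median 0.07) the fatty acid transporter CD36 differed by -0.51 ± 0.22 (0.07 with array medians set equal), the oxidized lipoprotein receptor OLR1 by -0.96 ± 0.50 and SCARB2 by 0.19 ± 0.15 (SE). Of the CSF1R ligands and lineage factors 2 were tested, the ligand IL34 at 0.42 ± 0.36 and the cytokine receptor chain CSF2RB at -0.78 ± 0.53 (SE).

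The partners of CD14 in sensing lipopolysaccharide had a median of 0.27 over 5 tested genes. TLR4, the signalling receptor, read 128, 130, 129 and 145 in low salt, against 101, 87.9 and 87.8 in controls, and differed by 0.72 ± 0.27 (SE, limma adjusted p = 0.356). Its other probe sets disagreed, at 1.15 and -0.97. The co-receptor LY96 differed by 0.27 ± 0.22 and TLR2 by 0.62 ± 0.45 (SE). Genes downstream of CD163 in haem and iron handling (7 tested, median 0.28) included biliverdin reductase B (BLVRB) at 0.86 ± 0.31 (SE), whose other probe sets differed by -0.43 on both, and the ferritin chains FTL at 0.28 and FTH1 at 0.31. Other genes of the lysozyme family, SPACA3, LYG1 and SPACA5, differed by -0.59, -0.47 and -0.12, with 0 at an unadjusted p of 0.05.

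**Figure D4:**
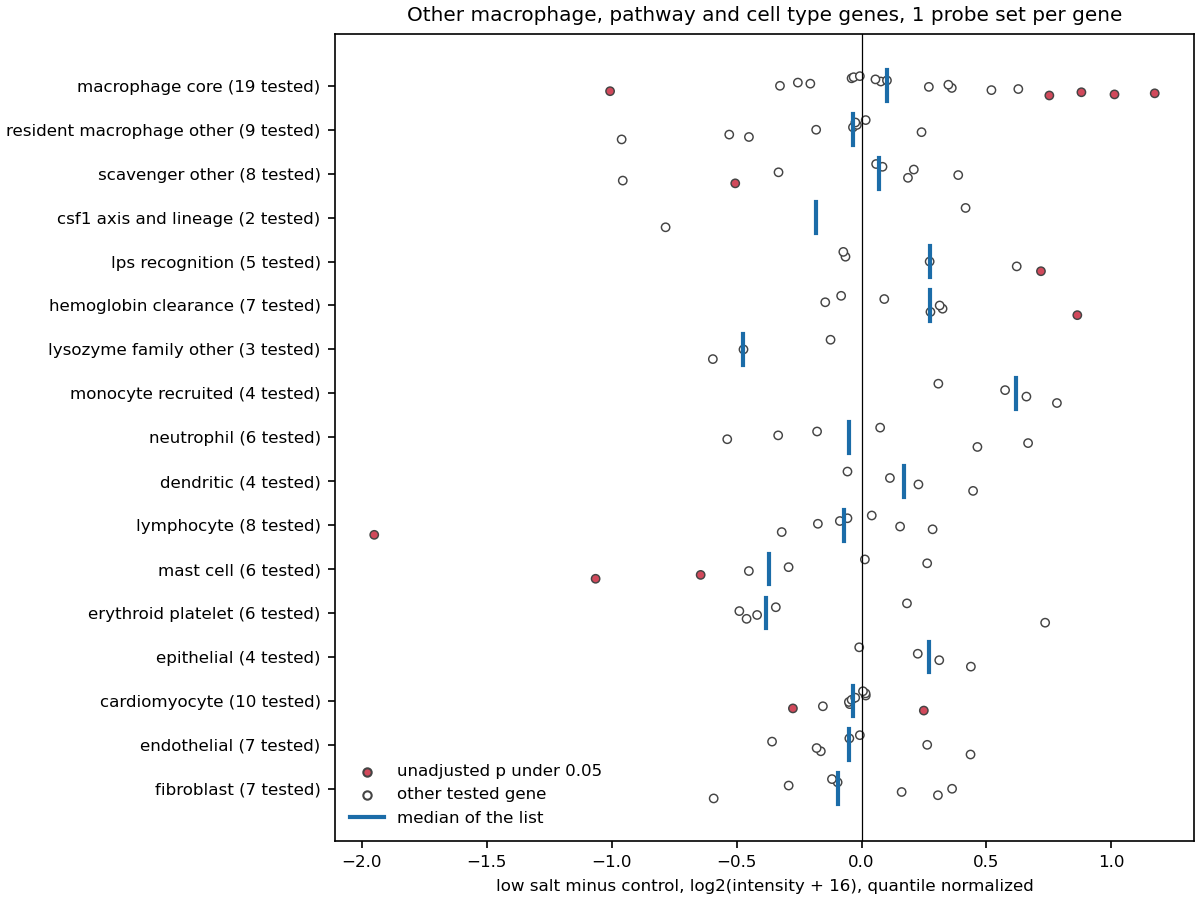
Low salt minus control for each tested gene of 17 lists, 1 probe set per gene, on the log2(intensity + 16) scale after quantile normalization. Filled points had an unadjusted p under 0.05, and blue bars give list medians, which run from -0.47 (other lysozyme family genes) to 0.62 (recruited monocytes).

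Markers of other cells that carry lysozyme or were sampled with the ventricle differed in both directions beside LYZF2, and their part in its difference was not tested. Neutrophil genes (6 tested of 12) had a median of -0.05 and 0 genes at an unadjusted p of 0.05, and their summed intensity was 492 to 916 in low salt and 568 to 699 in controls. MPO and ELANE, which encode the main granule enzymes, were not among the 6, of which 3 lay above 0 and 3 below. The 6 included BPI at 0.46 ± 0.24, LCN2 at 0.67 ± 0.39 and MMP8 at -0.54 ± 0.33 (SE). BPI, the brightest of them, read 429 to 613 in low salt and 232 to 421 in controls. The list of recruited monocyte genes (4 tested of 9) holds S100A8 and S100A9, which neutrophils also make. All 4 were above 0 after quantile normalization, though CCR2 turned to -0.02 with the values as deposited. S100A8 differed by 0.78 ± 0.39 and S100A9 by 0.66 ± 0.36 (SE). The summed intensity of this list was 309 to 555 in low salt and 174 to 415 in controls. Epithelial genes, which would mark glandular tissue, had a median of 0.27 over 4 tested genes, 0 of them at an unadjusted p of 0.05, and a summed intensity of 97.1 to 204 in low salt and 111 to 228 in controls. Erythrocyte and platelet genes (6 tested) had a median of -0.38 and a sum of 64.5 to 364 in low salt and 177 to 313 in controls.

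Of 6 tested mast cell markers 4 lay below 0 and 2 at an unadjusted p of 0.05, with a summed intensity of 332 to 488 in low salt and 541 to 935 in controls. The sums are on the deposited scale. The mean normalized log2 signal of the 6 genes overlapped, at 6.175 to 6.582 in low salt and 6.227 to 7.190 in controls. KIT, the stem cell factor receptor, read 8.38, 22.3, 59.4 and 27.9 in low salt, against 98.3, 68.9 and 119 in controls, a difference of -1.06 ± 0.34 (SE, limma adjusted p = 0.293). MS4A2, a chain of the IgE receptor, differed by -0.64 ± 0.29 (SE), though its other probe set differed by -0.07. The mast cell proteases CPA3 and CMA1 overlapped between the groups and differed by 0.26 ± 0.49 and 0.01 ± 0.39 (SE). For lymphocytes (8 tested, median -0.07) CD4 differed by -1.95 ± 0.46 (SE, limma adjusted p = 0.121), with 11.8, 12.1, 53.9 and 34.0 in low salt, against 370, 153 and 92.7 in controls. The other CD4 probe set differed by 0.06, and CD3E, a chain of the T cell receptor complex, by -0.32 ± 0.35 (SE). Dendritic cell genes (4 tested) had a median of 0.17. Cardiomyocyte (10 tested), endothelial (7 tested) and fibroblast (7 tested) genes had medians of -0.03, -0.05 and -0.10.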

How the data were processed

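Each deposited value is a linear intensity of 1 probe set, from the array maker's software GCOS per the submitters' processing notes. No source read here gives its version, the probe summary or a genome build. The values of 7 arrays (4 low salt, 3 control, grouped by title) were taken as log2(value + 16) and quantile normalized, since array medians differed by 0.93 on that scale. The 111 control probe sets and the dimmest 1 in 3 of the other 42924 were left out, and 28616 were tested with limma 3.58.1 (eBayes with trend) in R 4.3.3 with Benjamini-Hochberg adjustment and no covariates, as the labels give no batch. The procedure was tested on simulated data. For arrays the precision rests on the number of samples.

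Symbols came from the platform annotation. By gene number 9 of the 10 genes were found in the table of assembly UU_Cfam_GSD_1.0, and for CD68 the platform's symbol was kept. All member probe sets are named. From each list the genes of smallest p, up to 4, could be named, plus the 5 genes most correlated with LYZF2. FCER1G, C1QA, CD53, MS4A7, LYVE1, TIMD4, STAB1, CPA3, CMA1 and MYH7 were named after their values were seen. For each gene of a list the tested probe set with the highest mean stood. The members and lists were chosen with earlier results of these data known. The methods' t-test is an equal-variance test on the same values. Alternatives were offsets of 1 and 64, values as deposited, equal medians, no filter, only probe sets above the median, array weights, that t-test, each array left out and the replicate number as a block.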

Additional observations from a re-analysis of the deposited data

Results flagged for a closer look

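On 3 of the 20 member probe sets 1 low-salt sample lay far from the other 3 of its group on the normalized log2 scale, where chance gives about 1 in 20. Low-salt sample 1 read 7.59 for LYZ probe set 2, below the others. Low-salt sample 4 read 4.67 for CD68 probe set 2, above the others and below the signal filter. Low-salt sample 2 read 4.94 for CSF1R probe set 2, below the others. A different sample stood apart each time. The check needed 4 arrays in a group, so the controls were not checked.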

How the results depend on the processing

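The LYZF2 difference lay between 2.12 and 2.86 in all 16 alternatives, which is a description, since the gene was chosen for that difference. The count of member calls was 1 but 0 in the methods' t-test, and ran from 0 (without control 1) to 1 with 1 array left out. Nothing is read from these counts. Of the 20 member probe sets, 11 kept their sign in every alternative and 9 did not, and of 320 recomputed member differences 15 moved by more than the SD between replicates. The median over the members ran from 0.14 (without control 4) to 0.40 (without control 3) with 1 array left out, and was 0.03 with the values as deposited, 0.47 with equal medians and 0.22 with the block.

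Over all probe sets 99 passed, 11 of them higher. The counts were 39 and 6 with an offset of 1, 27 and 3 without a filter, 177 and 25 with array weights, and 4 and 1 by the methods' t-test. They were 165 in all with the values as deposited, and 33 higher with equal medians, where 23.7% of calls were higher, against 11.1% in the main setting. With 1 array left out they ran from 21 (without control 1 or low-salt 4) to 290 (without control 4), with 24, 26 and 41 without low-salt 1, low-salt 2 and control 3, and the higher ones from 0 (without control 1) to 50 (without control 4), with 2, 3 and 1 without low-salt 1, 2 and 4. The cause was not tested. The list genes gave 0 calls, but 2 with the values as deposited (CTSS and CD4), 1 with equal medians and 1 with array weights (CD4 in both), and 0 to 1 with 1 array left out, the 1 being CD4 without control 4.

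Controls and low-salt samples share the numbers 1, 3 and 4. The correlations of their deviations from the group means were 0.07, -0.26 and -0.18, and the samples did not each correlate best with their own number. With so few samples this cannot show whether a shared number marks a pairing, and the labels give none. With the replicate block 27 probe sets passed, 3 of them higher.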

Other observations

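In the gene table of assembly UU_Cfam_GSD_1.0 the protein-coding neighbours of LYZF2 are LALBA, which encodes α-lactalbumin, a milk protein related in sequence to lysozyme, and KANSL2, a subunit of a histone acetyltransferase complex. Neither stood apart beside it on the normalized scale. The LALBA probe set was below the signal filter and differed by 0.02, and the 3 KANSL2 probe sets differed by 0.15, -0.33 and -0.49, all with overlap on the normalized scale. As deposited, the KANSL2 probe set at -0.49 read 19.5, 29.0, 5.75 and 17.2 in low salt. Its controls read 79.7, 31.5 and 42.0, without overlap.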
